A study of Mus musculus with 16 samples.

Results

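The subset difference in the venetoclax response is the amount by which the change of a gene in regulatory T cells (Treg) exceeded or fell short of its change in conventional CD4+ T cells (Tcon). It was taken for the 10774 genes present in both deposited tables, of 11464 genes in either, joined on their Entrez identifiers, and it used all 16 libraries. On log2 normalized counts it equals Treg venetoclax minus Treg vehicle, less Tcon venetoclax minus Tcon vehicle. Positive values mean that the Treg change lay above the Tcon change, and negative values that it lay below. All mice were FOXP3-IRES-GFP reporters (strain B6.Cg-Foxp3tm2Tch/J), in which GFP follows Foxp3, and their genotype is given as WT. They received vehicle or 50 mg/kg venetoclax for 14 days, and FOXP3- Tcon and FOXP3+ Treg came from spleen and lymph node, giving 4 vehicle and 4 venetoclax libraries of each subset. Each code names 1 Tcon and 1 Treg library: VEH1 to VEH4 stand for vehicle, and ABT1 to ABT4 for venetoclax. The labels do not give the age of the mice, nor whether a code is 1 mouse or several pooled.

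BCL-2 protects cells from death by binding the pro-apoptotic members of its family, and venetoclax occupies the groove of BCL-2 that does this. In resting Tcon, interleukin-7 (IL-7) acting through its receptor, Il7r, supports survival. Treg carry little of that receptor, hold high levels of the interleukin-2 (IL-2) receptor alpha chain, Il2ra (CD25), and depend on IL-2, which signals through STAT5. Most CD4+ T cells at rest are out of the cell cycle, while Treg contain more dividing cells.

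Foxp3, the gene that defines Treg, was between 18016 and 21553 normalized counts in all 8 Treg libraries and between 648.5 and 761.1 in the 8 Tcon libraries. Recovered reads ran from 21335006 to 25027038 per library. Libraries of the same code moved together across subsets, with correlations of their deviations from the group means between 0.461 and 0.766 over 9300 genes. Each was above that with every other code of the same treatment. Over the codes of both treatments the same-code value was the highest except for ABT2 (0.481). The labels give no sex, and Y-linked genes summed to at most 1 normalized count in VEH1, VEH3, VEH4 and ABT4, while in the other codes the Tcon sums were 7978.6 (VEH2), 1941.4 (ABT1), 8845.4 (ABT2) and 4274.2 (ABT3). Codes with Y-linked reads were therefore 1 of 4 on vehicle and 3 of 4 on venetoclax. For some genes the difference is also given within codes with these reads (ABT1, ABT2 and ABT3 against VEH2). Beside it stands the difference within codes without them (ABT4 against VEH1, VEH3 and VEH4). For some genes the adjusted p after the Y-linked level entered as a covariate is given. Both kinds of value rest on the same 8 codes as the test itself. A gene printed with neither value is not thereby shown to keep its call with the covariate. Of 55 marker genes of other cell types, 17 were among the 10774 genes. Their summed normalized counts ran from 7570 to 8549 in vehicle and 6604 to 8267 in venetoclax Tcon, and from 6388 to 7465 in vehicle and 5276 to 6108 in venetoclax Treg, mostly from Pecam1, which T cells also express. Of the 17, only Itgam passed the test of the subset difference (-0.68 ± 0.17, SE; adjusted p = 0.0457; lost without 7 of the 8 codes in turn), and the part of other cells in the results was not tested.

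The responses of the subsets differed in 389 genes, 3.61% of those tested, by limma on the 8 within-code differences at an adjusted p under 0.05. For 137 genes (1.27%) the Treg change lay above the Tcon change, and for 252 (2.34%) below it. Most of the lower genes were ones whose rise in Tcon was the larger movement (179 of 252), while in 73 a fall in Treg was the larger. Of the 137 higher genes, 75 had a fall in Tcon as the larger movement and 62 a rise in Treg. Differences over 2-fold were found for 80 of the lower and 9 of the higher genes. The median over all genes was 0.005, the lowest percentile ended at -1.15 and the highest began at 0.88. For 7585 genes (70.4%) the 95% interval of the difference lay within 0.5 log2 units of 0.

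The count depended on single codes. The number called was 192 without VEH1, 245 without VEH2, 696 without VEH3, 180 without VEH4, 142 without ABT1, 179 without ABT2 and 227 without ABT3, and 130 of the 389 genes (84 lower, 46 higher) were called whichever code was left out. Adding each code's Y-linked level as a covariate left 82 called, and without ABT1 and ABT3 together 13. In each subset alone the test called 772 of 11171 genes in Tcon (6.91%; 438 rose, 3.92%, and 334 fell, 2.99%) and 2164 of 11067 in Treg (19.6%; 1189 rose, 10.7%, and 975 fell, 8.81%). The Tcon count was 1880 with the replicate number as a block across treatments, which treats same-numbered libraries as pairs. The labels state no such pairing of vehicle with venetoclax libraries. The Tcon count was 461 without VEH1, 458 without VEH2, 1244 without VEH3, 306 without ABT1 and 415 without ABT2. Without VEH3 the Treg count was 1419, and without ABT1 it was 1327. After upper quartile scaling 969 genes rose and 1348 fell in Treg. The genes described in full below are those that kept their call without each of the 8 codes, unless a loss is stated.

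**Figure D1:**
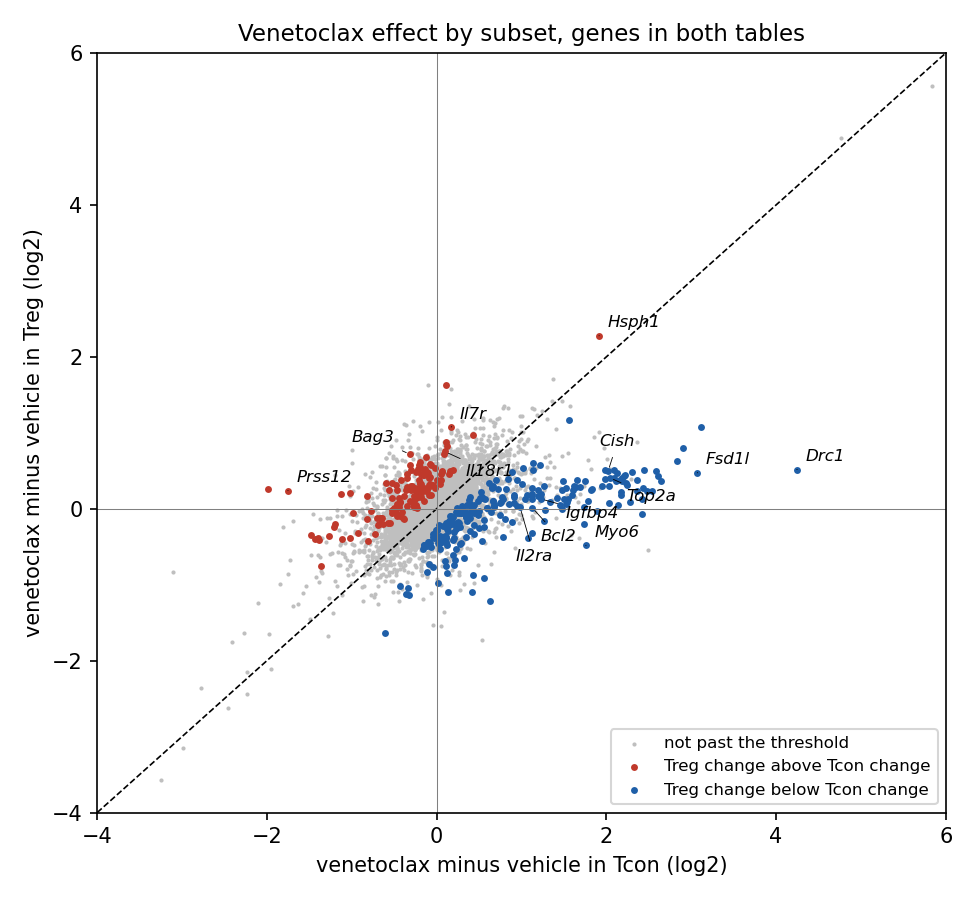
Venetoclax minus vehicle on the log2 scale in Tcon (horizontal) and in Treg (vertical) for the 10774 genes in both tables; the dashed line marks equal changes, and coloured points are the 137 genes above and the 252 below it that passed the test. The blue points stretch to the right along the zero line of Treg, with Drc1 farthest out (4.24 in Tcon, 0.52 in Treg).

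Survival and cytokine receptor genes differed in both directions. Bcl2, the gene of the drug's target, rose in Tcon and not in Treg, while Il7r rose in Treg and did not pass the test in Tcon. Il2ra and Cish, an inhibitor of cytokine receptors that STAT5 induces, rose in Tcon by more than in Treg. In bulk RNA, fewer cells of a kind and less RNA per cell cannot be told apart, which applies to every change below.

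Bcl2 (Entrez 12043; chromosome 1, 106538176 to 106714290) stood at 6862, 5532, 4114 and 4260 normalized counts in Tcon of VEH1 to VEH4 and at 11625, 12870, 10111 and 9986 in Tcon of ABT1 to ABT4. In Treg the values were 8503, 8791, 8298 and 7598 on vehicle and 8314, 7659, 8925 and 8607 on venetoclax. The Tcon groups did not overlap, whereas the Treg groups covered the same range. Tcon changed by 1.13 (adjusted p = 0.0025) and Treg by 0.01 (adjusted p = 0.90), a difference of -1.11 ± 0.15 (SE; adjusted p = 0.003). Treg had more Bcl2 RNA than Tcon of the same code in 4 of 4 vehicle codes (gap 0.31 to 1.01 log2 units) and less in 4 of 4 venetoclax codes (-0.75 to -0.18); the gaps set levels of separately normalized tables side by side. The difference was -1.14 in codes with Y-linked reads and -0.93 in those without.

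Il7r (Entrez 16197; chromosome 15, 9506159 to 9529941) had the reverse pattern. Its Treg values were 5379, 6651, 6775 and 5629 on vehicle and 13639, 15339, 10674 and 12073 on venetoclax, and its Tcon values 13570, 14818, 16600 and 13746, then 16515, 18939, 13735 and 17159. Treg groups were apart and Tcon groups overlapped. Treg rose by 1.08 (adjusted p = 7.8e-05), Tcon by 0.17 without passing the test (adjusted p = 0.40), and the difference was 0.905 ± 0.07 (SE; adjusted p = 0.00011). Treg lay below Tcon by a gap of -1.33 to -1.16 log2 units in the vehicle codes and of -0.51 to -0.28 in the venetoclax codes. Within codes with and without Y-linked reads the difference was 0.84 and 0.80.

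Il2ra (Entrez 16184; chromosome 2, 11642792 to 11693194) was a Treg gene in every code. Tcon values were 199.6, 172.9, 143.5 and 187.7 on vehicle and 337.7, 359.3, 264.1 and 446.4 on venetoclax, against 23583 to 25808 and 23739 to 26480 in Treg. The Tcon groups were separate, and all of them lay far below Treg. Tcon rose by 0.98 (adjusted p = 0.0059), Treg changed by 0.02 (adjusted p = 0.81), and the difference was -0.96 ± 0.14 (SE; adjusted p = 0.0035), with -0.79 and -1.28 in codes with and without Y-linked reads. Foxp3 changed by 0.07 in Tcon (adjusted p = 0.66) and by 0.11 in Treg (adjusted p = 0.20). Of 22 Treg signature genes, 7 rose in Tcon, beside 3.92% of all genes, with a list median of 0.38.

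Cish (Entrez 12700; chromosome 9, 107296659 to 107302784) had the largest difference among 21 genes of the common gamma chain list. In Tcon it was at 470.1, 408.8, 232.2 and 363.5 on vehicle and at 1462, 1844, 1462 and 1125 on venetoclax. Treg had 5203, 5009, 4503 and 4923, then 6956, 6911, 7039 and 6721. Both subsets rose with no overlap of their groups, Tcon by 2.02 (adjusted p = 0.00062) and Treg by 0.49 (adjusted p = 1.0e-04), and the difference was -1.53 ± 0.17 (SE; adjusted p = 0.00093). The start of Cish is shown because STAT5 acts on this promoter; capitals mark each match to TTCNNNGAA, which reads alike on both strands. The window holds 6 bases before and 24 after the RefSeq start (chr9:107296653-107296682, plus strand, GRCm38.p6).
Cish: ccagttTTCCTGGAAagTTCTTGGAAatct
Of the 18 genes of the common gamma chain list with a RefSeq promoter (250 bases before to 50 after the start), 3 held this motif, beside 6.76% of the 8710 promoters of tested genes. A match describes letters and not a bound site.

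Among the other 18 measured members of the common gamma chain list, none passed the test. Il2rb, the shared beta chain for IL-2 and IL-15, rose in both subsets, by 1.14 in Tcon (adjusted p = 0.0034) and 0.61 in Treg (adjusted p = 1.0e-04), with a difference of -0.53 ± 0.16 (SE; adjusted p = 0.12). Socs2, another STAT5-induced inhibitor, had -0.77 ± 0.20 (adjusted p = 0.058). Kinases and STATs of the pathway had small differences, for example 0.02 for Jak1, 0.09 for Jak3, -0.11 for Stat5a and 0.11 for Stat5b. The list held 1 higher and 2 lower genes of 21, beside 1.27% and 2.34% of all genes. Its median was -0.09 beside 0.005 for all genes.

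The rest of the BCL-2 family gave no call. Bcl2l1, which encodes BCL-XL, rose by 0.41 in Tcon (adjusted p = 0.029) and changed by 0.10 in Treg (adjusted p = 0.34), but the difference, -0.32 ± 0.09 (SE), had an adjusted p of 0.080. Mcl1 differed by -0.01 with a 95% interval of -0.16 to 0.14. The pro-apoptotic Bcl2l11 (BIM) fell by 0.65 in Treg (adjusted p = 0.00022) and changed by -0.21 in Tcon (adjusted p = 0.41), a difference of -0.44 ± 0.13 (adjusted p = 0.089). Of 7 anti-apoptotic members Bcl2 alone passed, beside 2.34% of all genes called lower. Of 8 pro-apoptotic members none did, with 3 of the 8 at an unadjusted p under 0.05, beside 16.5% of all genes.

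**Figure D2:**
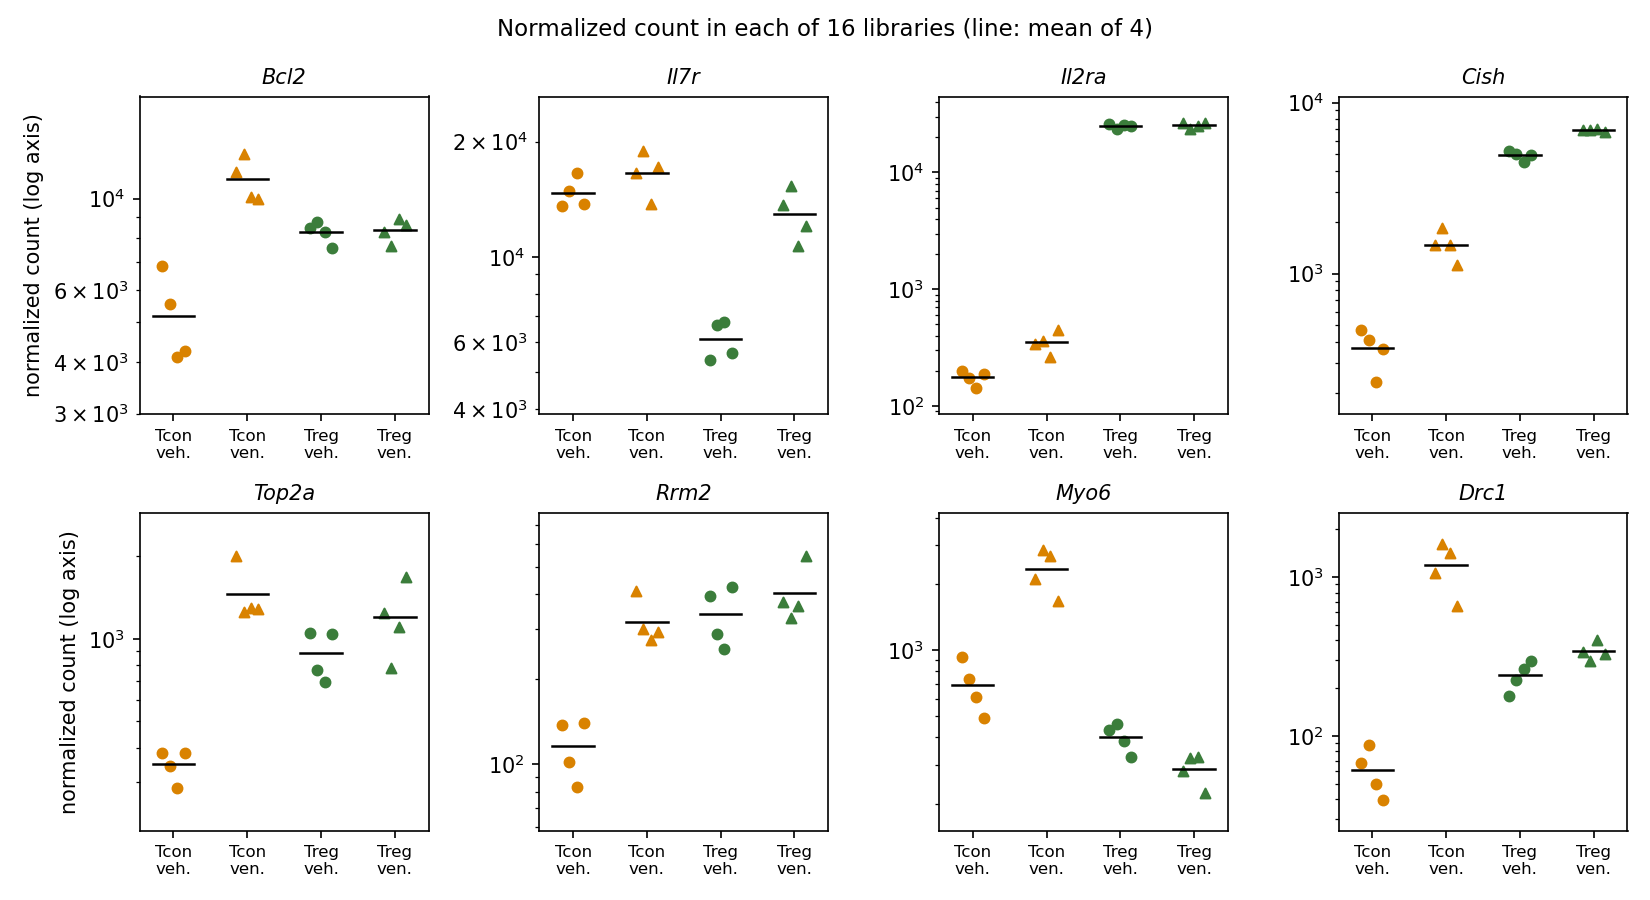
Normalized count (log axis) of 8 genes in each library; circles are vehicle, triangles venetoclax, orange Tcon, green Treg, and the line is the mean of 4. Bcl2, Top2a, Rrm2 and Drc1 separate by treatment in Tcon and overlap in Treg, Il7r does the reverse, Cish and Myo6 separate in both, and Il2ra of Tcon rises from between 143.5 and 199.6 to between 264.1 and 446.4.

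Genes of cell division were the lists with the most calls. On vehicle, mitotic genes were higher in Treg than in Tcon; on venetoclax they had risen in Tcon and the gap had narrowed or closed. Of 34 measured mitosis and spindle genes, 23 passed the test as lower (Tcon rose more) and 1 as higher. All genes had 2.34% lower and 1.27% higher. The median difference of the list was -1.44. Tcon changed by a median of 1.75, with 28 of the 34 called as risen, beside 3.92% of all genes. Treg changed by 0.27, with 1 called as risen, beside 10.7% of all genes. Of 35 DNA replication genes, 13 passed as lower and none as higher, beside the same shares of all genes. All 35 values were negative, and the median was -0.42. Without ABT1 the mitosis count was 12, without VEH4 14 and without ABT2 15. The replication count was 8 without VEH4, 5 without ABT1 and 8 without ABT2. Without the code block they were 13 and 10, and without the trend in the prior 13 and 5. Both counts were 0 without ABT1 and ABT3 together, and 6 and 2 with the Y-linked covariate.

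Top2a, the topoisomerase that untangles chromosomes at mitosis (Entrez 21973; chromosome 11, 98992947 to 99024199), stood at 382.5, 344.9, 287.1 and 383.3 in vehicle Tcon and at 2006, 1249, 1296 and 1281 in venetoclax Tcon. In Treg it was at 1046, 767.7, 694.2 and 1044 on vehicle and 1244, 784.5, 1106 and 1675 on venetoclax. The Tcon groups lay far apart, while the Treg groups overlapped. Tcon rose by 2.04 (adjusted p = 0.00034) and Treg changed by 0.41 (adjusted p = 0.14), so the difference was -1.63 ± 0.20 (SE; adjusted p = 0.0017), with -1.68 in codes with Y-linked reads and -1.0 in those without.

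Other mitotic genes moved with it. Kif11, the kinesin that separates spindle poles, differed by -1.68 ± 0.24 (adjusted p = 0.0033), and its Tcon mean went from 67 ± 23 to 283 ± 70 (SD, n = 4). Bub1b, of the spindle checkpoint, differed by -1.46 ± 0.20 (adjusted p = 0.0032), Ncapg, a condensin subunit, by -1.73 ± 0.25 (adjusted p = 0.0041), and Cdk1, the kinase that drives entry into mitosis, by -1.35 ± 0.23 (adjusted p = 0.0084). Mki67, the gene of the Ki-67 antigen, differed by -1.48 ± 0.24 (adjusted p = 0.0065), from 335 to 1298 in Tcon means and from 1189 to 1720 in Treg means. Kif4, Cenpf and Nek2 had larger differences, -2.27, -2.09 and -2.13, on Tcon vehicle means of 14, 24 and 11. In codes with and without Y-linked reads Kif4 differed by -2.54 and -1.64, Cenpf by -2.48 and -1.23, Nek2 by -3.21 and -1.15, Cdk1 by -1.82 and -0.65 and Mki67 by -1.56 and -0.96. With the Y-linked covariate Kif4 (0.0767), Nek2 (0.051), Cdk1 (0.0676) and Mki67 (0.0594) lost their calls, given as adjusted p. Bub1 (-2.31), Esco2 (-2.20) and Ube2c (-2.18) lost their calls without ABT1, at adjusted p values of 0.0539, 0.0641 and 0.0577.

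Smc4, a condensin subunit that is also abundant outside mitosis, went the other way. It fell in both subsets, by 0.68 in Tcon (adjusted p = 0.0094) and by 0.21 in Treg (adjusted p = 0.019), and its difference was 0.47 ± 0.11 (adjusted p = 0.033). That call was lost without VEH1 (0.0727), VEH2 (0.0588), VEH4 (0.0837), ABT1 (0.133), ABT2 (0.113) or ABT3 (0.0665), given as adjusted p. With the Y-linked covariate the adjusted p of Smc4 was 0.222. Smc4 supplied 86.2% of the summed counts of the list in vehicle Tcon and 61.9% in venetoclax Tcon. With it, the summed Tcon counts of the list did not rise (21605 to 27567 on vehicle, 18701 to 23382 on venetoclax), although the median member did.

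Replication genes were led by Mcm10, which acts in the activation of the replicative helicase. It was at 15.7, 8.0, 5.28 and 11.9 in vehicle and 76.4, 63.3, 51.4 and 43.5 in venetoclax Tcon, and at 36.0 to 61.3 and 38.7 to 92.2 in Treg. The Tcon groups lay apart and the Treg groups overlapped. The difference was -2.24 ± 0.38 (SE; adjusted p = 0.0082), with -2.97 and -1.14 in codes with and without Y-linked reads. Rrm2, the ribonucleotide reductase subunit made in S phase, had Tcon values of 137.7, 102.0, 83.4 and 140.0, then 409.4, 301.1, 275.2 and 294.3, and differed by -1.23 ± 0.18 (adjusted p = 0.0041). Pclaf, a partner of PCNA, differed by -1.99 ± 0.30 (adjusted p = 0.0045), Chaf1a, of the chromatin assembly factor, by -1.45 ± 0.23 (adjusted p = 0.0061), and Uhrf1, which keeps DNA methylation through replication, by -1.36 ± 0.22 (adjusted p = 0.0065). With the Y-linked covariate the calls of Mcm10 (0.0676), Chaf1a (0.0578), Uhrf1 (0.0563) and Mcm3 (0.067) were lost, given as adjusted p. Among the 6 subunits of the MCM2-7 helicase, Mcm3 passed the test (-0.57 ± 0.11, adjusted p = 0.0164), though not without VEH4 (0.0609), ABT1 (0.0713), ABT2 (0.06) or ABT3 (0.0504). Mcm2 (-0.34), Mcm5 (-0.42), Mcm7 (-0.21), Mcm4 (-0.16) and Mcm6 (-0.13) did not pass it. Chaf1a, Pclaf and Ncapg overlap another tested gene in the RefSeq annotation (Ubxn6, Trip4 and Lcorl), and no source used here states whether counting was by strand.

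The gap between subsets can be followed code by code. The median Treg minus Tcon gap of the 34 mitosis genes was 1.42, 1.29, 1.27 and 1.48 log2 units in VEH1 to VEH4, and -0.31, -0.39, 0.04 and 0.66 in ABT1 to ABT4. All 4 venetoclax codes were below all 4 vehicle codes, and ABT4, the venetoclax code without Y-linked reads, stood closest to them. Treg exceeded Tcon for 31 to 33 of the 34 genes in the vehicle codes, for 8 in ABT1, 7 in ABT2, 18 in ABT3 and 32 in ABT4. For the replication genes the median gaps were 0.71, 0.51, 0.53 and 0.71 on vehicle and -0.11, -0.10, 0.21 and 0.54 on venetoclax. The median log2 level of the mitosis genes was 4.96 to 5.70 in vehicle and 6.93 to 7.43 in venetoclax Tcon, and 6.58 to 6.96 and 6.5 to 7.62 in Treg.

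**Figure D3:**
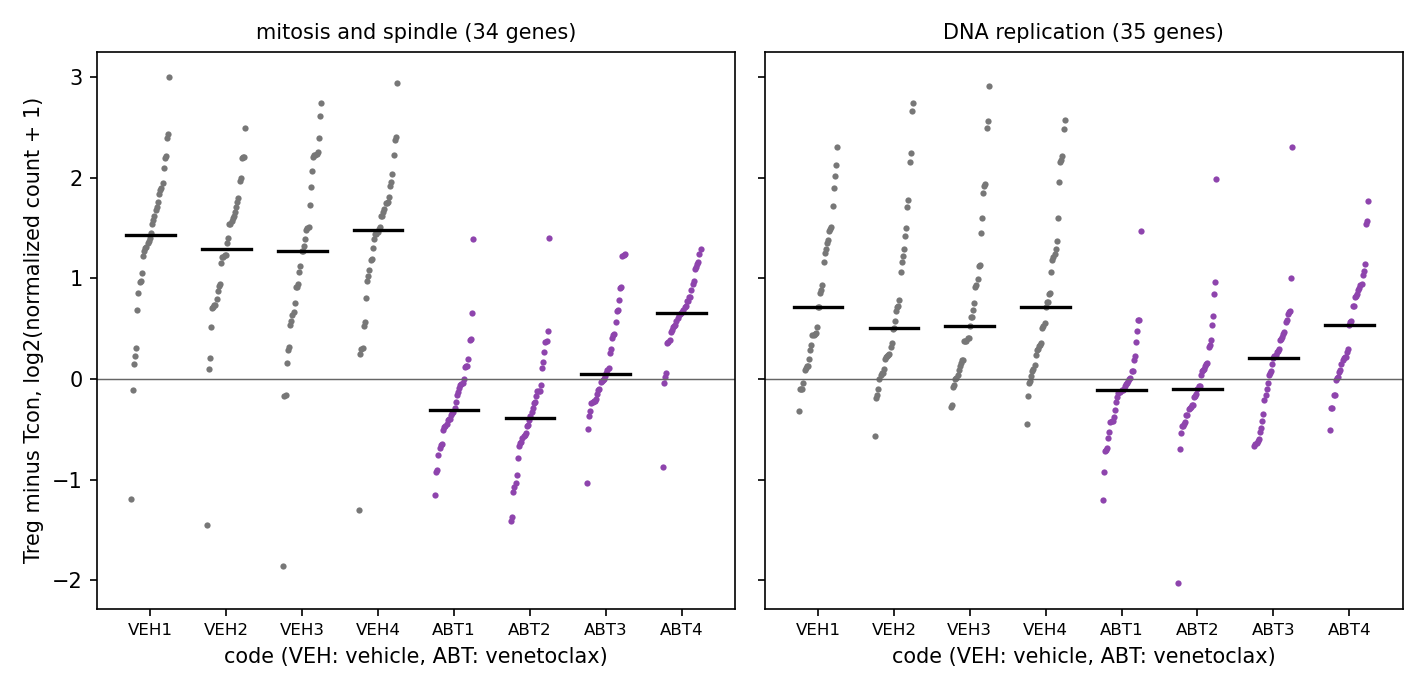
Treg minus Tcon, in log2(normalized count + 1), for each of 34 mitosis and 35 DNA replication genes in each of the 8 codes; grey points are vehicle, purple venetoclax, and the bar is the median. The bars of the mitosis genes lie between 1.27 and 1.48 on vehicle and between -0.39 and 0.66 on venetoclax, with ABT4 highest of the venetoclax codes.

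The promoters of these groups carry the elements known from cell cycle genes, and 5 are printed so that the letters can be seen beside the values. Mitotic genes are classically controlled through a TTTGAA element (the cell cycle homology region) near the start, with CCAAT boxes upstream that NF-Y binds, and S phase genes through E2F sites such as GCGGGAA. Each motif was searched on both strands over the 300-base RefSeq windows. TTTGAA was in 23 of 29 mitosis promoters (79.3%), in 3 of 30 replication promoters and in 11.9% of the 8710 promoters of tested genes. CCAAT was in 23 of 29, 17 of 30 and 39.3%, and GCGGGAA in 1 of 29, 14 of 30 and 8.92%. Matches to TTTGAA and CCAAT overlapped in 1 mitosis promoter, and no other pair of these motifs overlapped in either list. Within the mitosis list TTTGAA was in 14 of the 19 promoters of genes called lower and in 9 of the other 10, and CCAAT in 15 of 19 and 8 of 10. Over all 27025 promoters, 1 per gene, TTTGAA was in 18.1%, CCAAT in 37.9% and GCGGGAA in 4.66%.

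The lines give the 110 bases before the transcript start used in the RefSeq promoter table on GRCm38.p6, which for Top2a lies just inside the gene span given above, 5′ to 3′ along the gene, with TTTGAA or its reverse complement TTCAAA and CCAAT or ATTGG in capitals for Top2a (chr11:99024190-99024299, minus strand), Kif11 (chr19:37376272-37376381, plus strand) and Cdk1 (chr10:69352913-69353022, minus strand). For Chaf1a (chr17:56040306-56040415, plus strand) and Uhrf1 (chr17:56303227-56303336, plus strand) the capitals are GCGGGAA or its reverse complement TTCCCGC and CCAAT.
Top2a: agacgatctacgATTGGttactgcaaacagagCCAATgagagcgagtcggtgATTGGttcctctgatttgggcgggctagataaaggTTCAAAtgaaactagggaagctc
Kif11: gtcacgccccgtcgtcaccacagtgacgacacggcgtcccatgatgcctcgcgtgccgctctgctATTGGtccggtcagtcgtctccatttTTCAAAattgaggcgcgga
Cdk1: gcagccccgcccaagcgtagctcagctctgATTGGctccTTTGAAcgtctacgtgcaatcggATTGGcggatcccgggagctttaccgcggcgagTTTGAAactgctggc
Chaf1a: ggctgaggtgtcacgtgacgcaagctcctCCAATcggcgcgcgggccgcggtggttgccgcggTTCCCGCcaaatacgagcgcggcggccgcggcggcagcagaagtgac
Uhrf1: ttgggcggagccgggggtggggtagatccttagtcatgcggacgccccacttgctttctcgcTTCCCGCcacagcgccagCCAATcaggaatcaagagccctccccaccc
Top2a shows 3 CCAAT boxes and then 1 TTCAAA close to the start, Kif11 1 of each, and Cdk1 2 of each. Chaf1a and Uhrf1 each show 1 TTCCCGC and 1 CCAAT.

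Outside the cell cycle, the largest difference was that of Drc1, which encodes a part of the nexin link in motile cilia. Drc1 (Entrez 381738; chromosome 5, 30281335 to 30366695), was at 67.9, 88.0, 49.6 and 39.7 in vehicle Tcon and at 1058, 1626, 1426 and 659.7 in venetoclax Tcon. Treg values were 179.1, 224.7, 264.8 and 295.5 on vehicle and 339.2, 295.1, 400.0 and 330.3 on venetoclax, so the groups barely overlapped in Treg and were far apart in Tcon. Tcon rose by 4.24 (adjusted p = 0.00034) and Treg by 0.52 (adjusted p = 0.022), and the difference was -3.73 ± 0.35 (SE; adjusted p = 0.00042). On vehicle Treg lay above Tcon, and on venetoclax Tcon lay above Treg.

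Myo6, a myosin motor that walks toward the minus end of actin (Entrez 17920; chromosome 9, 80164976 to 80311729), moved in opposite directions and had the smallest p. Tcon values were 924.4, 739.7, 610.0 and 489.6 on vehicle and 2109, 2849, 2661 and 1672 on venetoclax. In Treg they were 432.1, 460.9, 386.5 and 325.9, then 280.3, 322.6, 325.6 and 222.8. Neither pair of groups overlapped. Tcon rose by 1.76 (adjusted p = 0.0011), Treg fell by 0.48 (adjusted p = 0.021), and the difference was -2.24 ± 0.11 (SE; adjusted p = 1.8e-06), with -2.34 and -2.12 in codes with and without Y-linked reads.

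Fsd1l and Acvr1c were nearly silent in vehicle Tcon. Fsd1l was at 0, 3.0, 2.1 and 0 there and at 12.3, 13.3, 21.2 and 13.8 in venetoclax Tcon, beside 183.9 to 233.0 and 246.2 to 326.6 in Treg. Acvr1c, a receptor of the activin family (ALK7), was at 1.97, 4.0, 7.39 and 1.99 and then 19.8, 27.6, 28.2 and 16.8 in Tcon, beside 65.2 to 81.8 and 51.9 to 111.1 in Treg. Both genes stayed Treg genes, and the Tcon values rose above their vehicle range in every venetoclax code. The differences were -2.60 ± 0.41 (SE; adjusted p = 0.0055) and -2.49 ± 0.36 (adjusted p = 0.0039), on few reads in vehicle Tcon. Fsd1l differed by -1.71 in codes with Y-linked reads and -2.9 in those without, and its call was lost with the Y-linked covariate (adjusted p = 0.0524).

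Igfbp4, an IGF-binding protein that marks naive T cells (Entrez 16010; chromosome 11, 99040005 to 99052655), changed in Tcon. Tcon values were 17745, 16945, 12618 and 13176 on vehicle and 36117, 39621, 36540 and 28626 on venetoclax. In Treg they were 2766, 2753, 2809 and 2286, then 2995, 2937, 2986 and 2667, and those groups overlapped. Tcon rose by 1.23 (adjusted p = 0.00094), Treg changed by 0.13 (adjusted p = 0.19), and the difference was -1.10 ± 0.11 (SE; adjusted p = 0.00048).

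In the positive direction Prss12, the serine protease neurotrypsin, had the largest difference by the rule for named genes. Its Tcon values were 96.4, 123.9, 74.9 and 89.4 on vehicle and 33.0, 50.0, 21.2 and 15.8 on venetoclax, while Treg held 33.3 to 47.9 and 34.6 to 62.3. The Tcon fall carried the difference: -1.75 in Tcon (adjusted p = 0.0093), 0.24 in Treg (adjusted p = 0.46), and 1.99 ± 0.29 (SE; adjusted p = 0.0038) between them. Bag3, a co-chaperone of HSP70, had Treg values of 237.5, 301.7, 187.9 and 363.9 on vehicle and 481.6, 410.1, 549.8 and 330.3 on venetoclax. The Treg groups overlapped through VEH4 and ABT4. It rose by 0.72 in Treg (adjusted p = 0.017), was at -0.31 in Tcon (adjusted p = 0.58), and differed by 1.03 ± 0.14 (adjusted p = 0.0033). Rln3, relaxin-3, differed by 0.94 ± 0.17 (adjusted p = 0.0099) on Tcon values of 10.2 to 23.8, and its call was lost with the Y-linked covariate (adjusted p = 0.08). The other 9 of the 12 largest positive genes (Trf, Muc3a, Hdac9, Grm6, Irs2, Itga7, Cdc42bpa, Trim13 and Hist1h1c) had differences of 0.97 to 1.51, and each lost its call in 4 to 7 of the 8 removals of a code.

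Other genes passed the test in Treg and not in Tcon. Il18r1, the receptor chain that binds interleukin-18, had Treg values of 1739, 1651, 1658 and 1810 on vehicle and 3068, 2453, 3011 and 3079 on venetoclax, with Tcon between 2414 and 2968 throughout. Treg rose by 0.75 (adjusted p = 7.5e-05), Tcon was at 0.09 (adjusted p = 0.48), and the difference was 0.66 ± 0.08 (SE; adjusted p = 0.0019). On vehicle every Treg library lay below every Tcon library, and on venetoclax the ranges overlapped.

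Prdm1, which encodes the effector regulator Blimp-1, was at 663.7, 690.8, 535.5 and 752.5 in vehicle Treg and 1012, 993.1, 790.4 and 1148 in venetoclax Treg, and at 176.4 to 287.9 in Tcon. Its difference was 0.78 ± 0.10 (SE; adjusted p = 0.0027), from 0.58 in Treg (adjusted p = 0.0043) and -0.20 in Tcon (adjusted p = 0.42). Tnfrsf9 (4-1BB), an activation-induced costimulatory receptor, rose in Treg from means of 4509 ± 363 to 5968 ± 696 (SD, n = 4) and differed by 0.75 ± 0.11 (adjusted p = 0.0041). In Tcon it was at -0.35 (adjusted p = 0.14, or 0.049 with the replicate block, a pairing that the labels do not state). Txk, a TEC family kinase of T cell receptor signalling, fell in Treg from 2128, 2141, 2390 and 1751 to 1419, 1470, 1699 and 1500, with Tcon between 3584 and 4510. The difference was -0.49 ± 0.07 (adjusted p = 0.0032).

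Of the Treg signature genes, 15 of 22 rose in Treg (beside 10.7% of all genes), 7 rose in Tcon (beside 3.92%) and none fell in either subset. For the difference, of 22 measured genes of the Treg signature list, 2 passed as higher (Tnfrsf9 and Icos) and 3 as lower (Il2ra, Gpr83 and Capg), beside 1.27% and 2.34% of all genes, with a median of 0.04. Gpr83, an orphan receptor of Treg, rose in both subsets, from 182 ± 19 to 368 ± 37 in Tcon and from 3712 ± 194 to 4637 ± 180 in Treg (SD, n = 4), and differed by -0.68 ± 0.10 (adjusted p = 0.0041). Foxp3 differed by 0.04 with a 95% interval of -0.14 to 0.22. Ctla4, the inhibitory receptor, differed by 0.60 ± 0.22 without passing the test (adjusted p = 0.18). Icos lost its call without VEH1 (adjusted p = 0.116), VEH2 (0.0732), VEH4 (0.0799), ABT1 (0.0808), ABT2 (0.129) or ABT3 (0.108). Capg lost its call without the same 6 codes, at 0.123, 0.0873, 0.121, 0.130, 0.132 and 0.108. With the Y-linked covariate the adjusted p of Icos was 0.262.

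Among 30 effector and memory genes, 3 passed as higher (Prdm1, Il18r1 and Il18rap) and 2 as lower (Vim and Ccr8). All genes had 1.27% higher and 2.34% lower. The median of the list was 0.18. Il18rap lost its call in 5 of the 8 removals and Ccr8 in 6. With the Y-linked covariate the adjusted p of Il18rap was 0.257. Vim, the intermediate filament vimentin, rose in Tcon from 4873, 4536, 4509 and 4641 to 7769, 7855, 8493 and 7469, while Treg ran from 7434 to 8365 on vehicle and 8003 to 9758 on venetoclax. Its difference was -0.62 ± 0.08 (SE; adjusted p = 0.0027). Of 19 FOXO target and growth restraint genes, 4 passed as higher and 1 as lower, beside 1.27% and 2.34% of all genes. Cdkn1b, the cell cycle inhibitor p27, differed by 0.42 ± 0.07 (adjusted p = 0.006) with a fall of Tcon by 0.31 (adjusted p = 0.013), and Arrdc3, an arrestin-like adaptor, by 0.63 ± 0.11 (adjusted p = 0.0091) with falls in both subsets. Il7r and Irs2 were the other higher genes, and Ddit4 was the lower one, with its call lost without VEH1 (adjusted p = 0.0624), VEH4 (0.0634) or ABT1 (0.0707). With the Y-linked covariate Cdkn1b and Arrdc3 had adjusted p values of 0.0534 and 0.0788.

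Cholesterol synthesis genes lay lower in the comparison of responses, with 7 of 24 past the test, beside 2.34% of all genes called lower. None was higher, and the median was -0.27. Idi1, the isopentenyl diphosphate isomerase, differed by -0.52 ± 0.08 (SE; adjusted p = 0.0049). Its Tcon values were 1063, 1123, 1336 and 912.7 on vehicle and 1235, 1529, 1966 and 1469 on venetoclax, and its Treg values 1255, 1183, 1319 and 1052, then 995.4, 1091, 1399 and 1188. Groups overlapped within each subset, and the difference lay in the comparison of each code's Treg and Tcon. Tcon was at 0.48 (adjusted p = 0.078; 0.00165 with the replicate block) and Treg at -0.05 (adjusted p = 0.77). Hmgcs1, the synthase before the rate-limiting reductase, differed by -0.46 ± 0.08 (adjusted p = 0.0075), with neither subset past the test alone, and its call was lost with the Y-linked covariate (adjusted p = 0.0658). The count of 7 was 3 without VEH1, 3 without VEH4, 2 without ABT1, 2 without ABT2 and 3 without ABT3. It was 8 without VEH3 and 0 when the code was not used as a block. Without the trend in the prior it was 2, with the Y-linked covariate 1, and without ABT1 and ABT3 together 0.

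The other lists had smaller counts, to be read beside 1.27% of all genes called higher and 2.34% called lower. Glycolysis had 3 lower of 21, the naive and resting T cell list 3 lower of 17 (Igfbp4, Txk and Dapl1, the last not in every removal), NF-kB and TNF receptor genes 4 higher of 31, immediate early and AP-1 genes 2 higher and 1 lower of 35, and T cell receptor proximal genes 2 higher and 1 lower of 32. Interferon response genes had 1 higher and 1 lower of 34. Heat shock chaperones had 2 higher of 23 (Hsph1 and Bag3), with a median of 0.02, although 10 had risen in Tcon (beside 3.92% of all genes) and 15 in Treg (beside 10.7%), and Hsph1 lost its call in 7 of the 8 removals. None of 69 oxidative phosphorylation, 37 proteasome, 22 endoplasmic reticulum chaperone, 15 antigen presentation (MHC class I), 22 T helper lineage or 12 mitochondrially encoded genes passed, while 10, 13, 2, 2, 6 and 0 of them had an unadjusted p under 0.05, as did 16.5% of all genes. Without VEH3, 9 oxidative phosphorylation, 3 proteasome and 1 antigen presentation gene passed as lower and 1 endoplasmic reticulum gene as higher. Without VEH3 and ABT3 together, 10 oxidative phosphorylation and 5 mitochondrially encoded genes passed as lower. Without VEH4, without ABT1 or without ABT2, the glycolysis, T cell receptor proximal and immediate early lists had no call. Without VEH3 their counts were 4 lower (glycolysis), 4 higher and 1 lower (T cell receptor proximal) and 10 higher and 1 lower (immediate early). The NF-kB count was 1 higher without VEH1, VEH4 or ABT1, and 7 higher and 1 lower without VEH3.

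Cytosolic ribosomal protein genes had small negative differences and few calls. Of 73, 70 had a negative difference and the median was -0.16. As lower 2 passed, Rpl28 and Rps28, beside 2.34% of all genes. In Treg alone 61 of the 73 had fallen, beside 8.81% of all genes, and in Tcon none had passed the test in either direction, beside 2.99% of all genes that fell. Their summed normalized counts ran from 2353341 to 4007295 in vehicle and 2270939 to 3153859 in venetoclax Tcon, and from 2137267 to 2595303 and 1793284 to 2067651 in Treg. None passed without VEH1, VEH2, VEH4, ABT1, ABT2 or ABT3. Without VEH3, 8 passed as lower, and without VEH3 and ABT3 together 28.

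**Figure D4:**
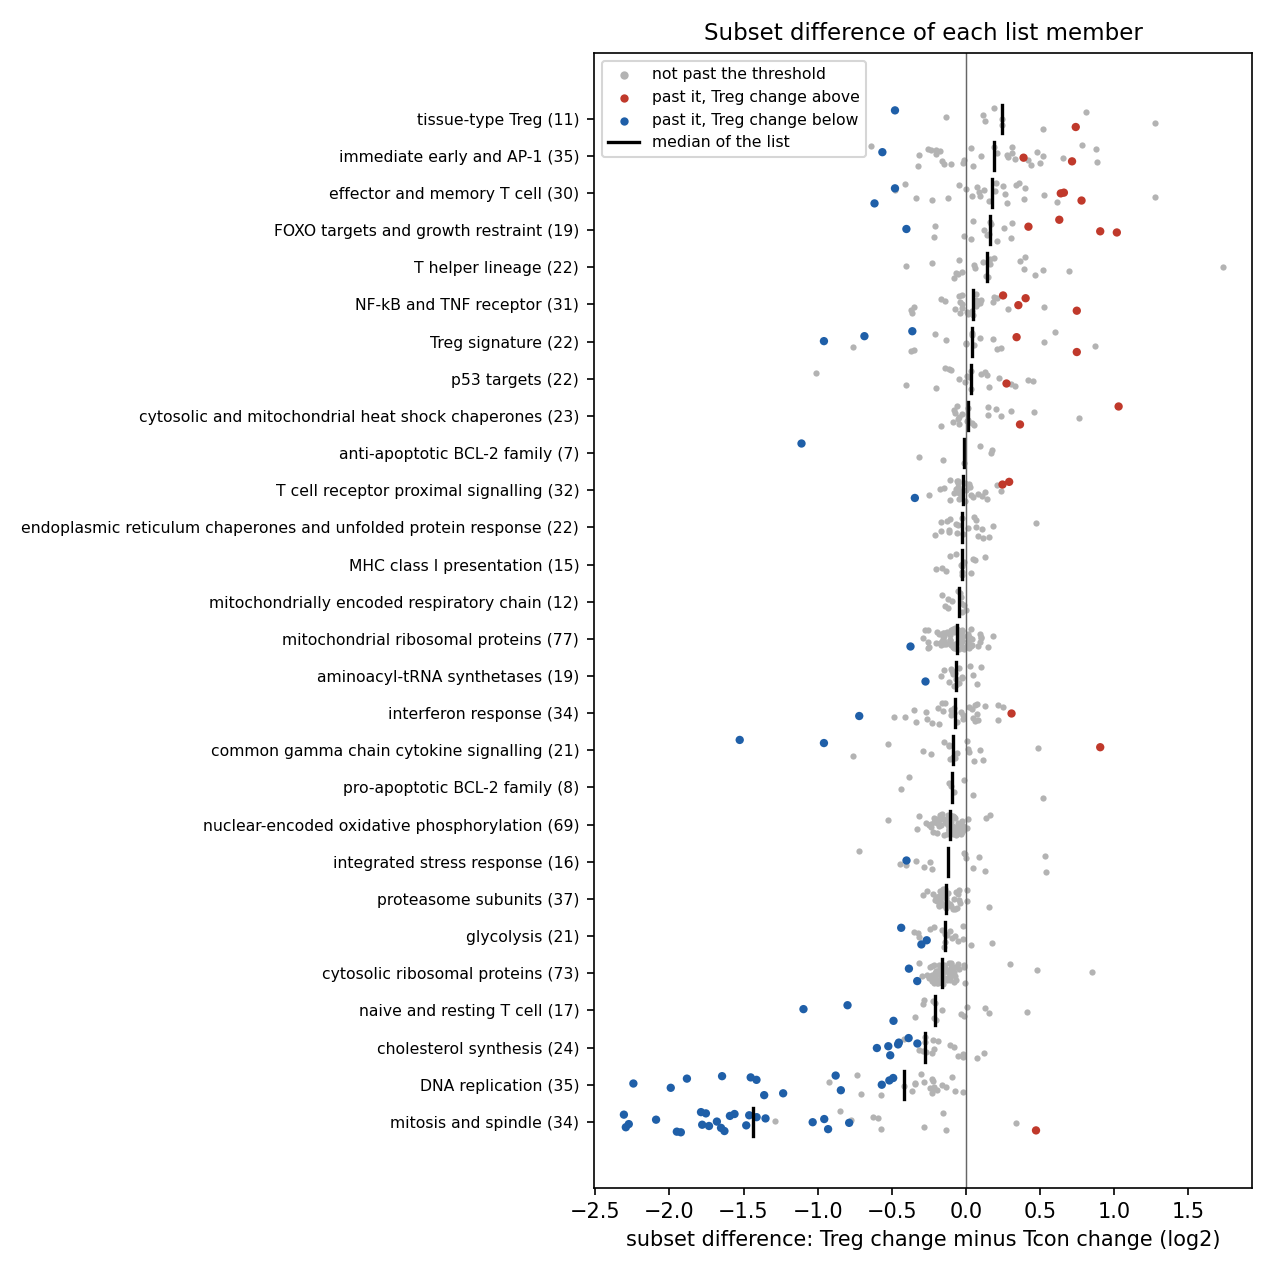
Subset difference (log2) of every measured member of 28 gene lists, ordered by their median (black bar), with the number of members in brackets; red and blue points passed the test as higher and lower. The mitosis and replication lists stand lowest with medians of -1.44 and -0.42, and every other median lies within 0.3 of 0.

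Genes called in both subsets with opposite signs were 6, beside 388 called in both with the same sign. Myo6 was described above; the others were singled out after their values were seen. Rcn1, a calcium-binding protein of the endoplasmic reticulum, rose in Tcon from 794.6, 671.7, 770.5 and 658.4 to 1241, 1235, 1372 and 1130 and fell in Treg from 2622, 2758, 2497 and 2472 to 1954, 1919, 2088 and 2047. None of these groups overlapped, and the difference was -1.15 ± 0.09 (SE; adjusted p = 0.000109). Casp8, the initiator caspase of death receptors, rose in Tcon from between 4202 and 4497 to between 4777 and 5312 and fell in Treg from between 6050 and 6317 to between 5174 and 5719, a difference of -0.44 ± 0.06 (adjusted p = 0.0032). Acvrl1, a receptor of the TGF-beta family (ALK1), differed by -0.97 ± 0.10 (adjusted p = 0.000575), Sema4a, a semaphorin, by -0.96 ± 0.14 (adjusted p = 0.0036) and Tmem64 by -0.80 ± 0.08 (adjusted p = 0.000476). All 6 rose in Tcon and fell in Treg, and all 6 kept their call for the difference without each of the 8 codes. That does not cover their calls in each subset alone. In Tcon alone the adjusted p by limma was 0.048 for Casp8 and 0.033 for Acvrl1, close to the threshold. With the Y-linked covariate the adjusted p was 0.00124 for Rcn1, 0.0283 for Casp8, 0.00786 for Acvrl1, 0.0305 for Sema4a and 0.00847 for Tmem64.

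Pde3b, a cyclic nucleotide phosphodiesterase that Foxp3 represses in Treg, was the 1 gene named for effects of opposite sign that were each at least 0.5. Tcon values were 5798, 4591, 5633 and 5598 on vehicle and 9893, 7321, 5630 and 9799 on venetoclax. Treg had 277.4, 99.9, 462.5 and 160.6, then 145.7, 86.5, 114.0 and 114.3, and both pairs of groups overlapped. The difference was -1.47 ± 0.33 (SE; adjusted p = 0.031). Tcon was at 0.56 (adjusted p = 0.072; 0.00512 with the replicate block) and Treg at -0.91 (adjusted p = 0.080). The call was lost without VEH1 (0.0916), VEH4 (0.051), ABT1 (0.0957), ABT2 (0.0941) or ABT4 (0.0751), and the difference was -0.52 in codes with Y-linked reads and -2.04 in those without.

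A shared response stood beside these differences. Of the 388 genes called in both subsets in the same direction, 286 had a 95% interval of the difference within 0.5 log2 units of 0, a share close to the 70.4% among all genes. Stip1, which links HSP70 to HSP90, went from 2277, 2645, 2381 and 2916 to 6532, 5910, 6866 and 4215 in Tcon and from 2200, 2598, 2610 and 3033 to 7321, 6266, 6814 and 4459 in Treg. The values of each code were close in both subsets, and ABT4 rose least in both. Its difference was 0.05 ± 0.06 (adjusted p = 0.76). Stip1 and the other genes named in this paragraph were chosen for such an interval, so their small differences are no separate result. Dnaja1, an HSP40 partner of HSP70, rose by 1.12 and 1.32, and Cxcr4, the receptor of CXCL12, by 1.14 and 1.31 in Tcon and Treg. Cirbp, the cold-inducible RNA-binding protein, fell by 1.19 and by 0.95, with a difference of 0.25 ± 0.07 (adjusted p = 0.084). Arrdc4, Plin2, Chordc1 and Ubfd1 also rose in both, and Tubb2a fell in both.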

How the data were processed

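Per the labels, RNA of sorted Tcon and Treg was extracted with RNeasy mini plus and total RNA was sequenced on Illumina NovaSeq. Per the submitters' processing notes HISAT2, SAMtools and mm10 were used, without versions. The authors deposited 1 table per subset of a signal per gene, read counts divided by 1 size factor per library. Whole reads were recovered from these deposited values for 100% of values (tolerance 0.01 reads). The tables were normalized separately, and a constant between them cancels in the subset difference, though not in gaps.

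Treg minus Tcon of log2(normalized count + 1) was taken within each of the 8 codes and compared between treatments with limma 3.58.1 (empirical Bayes with trend, R 4.3.3, 4 against 4, Benjamini-Hochberg over 10774 genes, threshold 0.05). Each subset was also tested alone, and fold changes are on that log2 scale, which understates low genes. The labels call the samples biological replicates. The block on code rests on correlations of the libraries of 1 code (0.461 to 0.766). Between treatments, same-numbered Tcon libraries correlated at 0.149, 0.574, 0.624 and 0.262, so the replicate block is given beside Tcon results it changes. The labels do not state that equal numbers form pairs across treatments, so p values with this block rest on an assumed pairing.

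The rule named, among called genes whose mean reached 50 in either table, the 12 largest differences each way and up to 10 of opposite sign. The 10 shared genes had to reach that mean and to be called in each subset alone, not for the difference. The 10 fixed genes and up to 4 per list needed neither a call nor that mean. The members and lists were chosen with earlier results of these data known. Alternatives were 2 pseudocounts (0.5 and 8), a filter at a mean of 50, TMM and upper quartile scaling, no trend, edgeR 4.0.16 and DESeq2 1.42.0 on recovered reads, the blocks, each code left out, a Y-linked covariate and pairs of codes left out. The scripts were tested on simulated data. Promoters are RefSeq windows on GRCm38.p6.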

Additional observations from a re-analysis of the deposited data

Results flagged for a closer look

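Of 90 groups of 4 within-code gaps (45 genes), 4 held 1 code far from the other 3, where chance flags about 1 in 20 groups. Nuf2, a kinetochore gene, had a Treg minus Tcon gap of 1.14 in ABT4, beside -0.41, -0.29 and -0.22 in the other venetoclax codes. Cenpf, another kinetochore gene, had 1.4 in VEH1 beside 1.97, 2.06 and 1.96. Ubfd1 had 0.04 in ABT1 beside 0.12, 0.12 and 0.13, and Bcl2l1 had 1.44 in ABT2 beside 1.58, 1.57 and 1.58, both narrow ranges.

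The venetoclax effect differed between subsets by limma's test of the difference for 389 genes. These include Bcl2 (-1.11), Il2ra (-0.96) and Il7r (0.9). Pde3b (-1.47) is also among them, and its effects had opposite signs in the subsets, neither past the test alone. The call of Pde3b was lost without VEH1, VEH4, ABT1, ABT2 or ABT4.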

How the results depend on the processing

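The count of 389 genes was 140 with no replicate block on the code, 972 with the replicate block on the number across treatments, 189 with no trend, 82 with the Y-linked covariate, 903 without VEH3 and ABT3, 13 without ABT1 and ABT3, and 142 to 696 when 1 code was left out. It was 337 to 418 under both pseudocounts, the filter at 50, TMM, upper quartile scaling, edgeR and DESeq2. The Tcon count of 772 was 1880 with the replicate block, 1371 with DESeq2, 330 with the Y-linked covariate, 1443 without VEH3 and ABT3, 116 without ABT1 and ABT3, and 306 to 1244 without 1 code. The Treg count of 2164 was 1028 without VEH3 and ABT3, 614 without ABT1 and ABT3, and 1327 to 2198 without 1 code. It was 1544 with the Y-linked covariate, 1510 with no trend and 2467 with the replicate block. Removing codes leaves fewer samples; otherwise the cause was not tested. Between treatments, same-numbered within-code differences correlated at -0.065, 0.224, 0.524 and 0.25, and same-numbered Treg libraries at -0.05, 0.449, 0.102 and 0.284. Whether equal numbers form pairs was not tested.

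No named gene with a call in the main or the alternative run reversed its direction under that alternative. Sign changes of named genes called in neither run were not counted. Of 76 named genes with a call, 70 lost it without ABT1 and ABT3, 52 with the Y-linked covariate, 44 without the code block, 41 without ABT1, 37 with no trend and 2 under TMM. Genes with few reads in Tcon, such as Fsd1l, Acvr1c and Rln3, are limited by depth.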
